A study of Mus musculus with 13 samples.

Results

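The cytokine receptor genes Osmr, Lifr, Il6st, Il6ra, Il3ra, Csf2rb, Il1r1, Il13ra1, Il4ra and Il17ra were followed in C2C12 myotubes. They were taken by symbol and were selected on the contrast between palmitoylethanolamide (PEA) and vehicle, because Osmr and Il3ra were higher and Lifr and Csf2rb lower with PEA. They make up 10 of the 16382 genes in the tables, and all 10 passed the filter on low counts that left 13142 genes. Of the 10, 6 belong to the gp130 and beta-common receptor groups, and the other 4 (Il1r1, Il13ra1, Il4ra and Il17ra) encode receptors of the IL-1, IL-4 and IL-13, and IL-17 families.

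C2C12 is an immortalised mouse myoblast line that fuses into myotubes when serum is withdrawn, and it contains no immune cells, vessels or nerve. Myotubes on day 8 of differentiation received differentiation medium with DMSO alone (CON) or with 10 μM PEA, a lipid amide related to the endocannabinoids, for 24 h before RNA was taken. Each group had 6 poly-A RNA-seq libraries, made from duplicate wells in 3 repeats of the experiment. The study calls the duplicate wells technical replicates. Which libraries share a repeat is not given by the labels, so errors and p-values treat the libraries as independent. They measure a spread between libraries that is partly technical.

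Receptors of this class bind a cytokine through a ligand-specific chain and pass the signal through a chain that several cytokines share. gp130, encoded by Il6st, is the shared chain for IL-6, LIF, oncostatin M and their relatives, whereas the beta-common chain, encoded by Csf2rb, serves IL-3, IL-5 and GM-CSF, and both recruit Janus kinases that phosphorylate STAT proteins. In skeletal muscle, members of the IL-6 and LIF group are known as regulators of myoblast growth and as cytokines that muscle itself releases.

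Libraries held between 12354845 and 50397444 estimated counts in CON and between 16202357 and 22363990 in PEA. CON replicate 1 was the deepest, with 2.25 times the total of the next library. The 10 receptor genes had between 114 and 11510 estimated counts in a library, and their coefficient of variation within a group lay between 2.84% and 18.2%. In bulk RNA, fewer cells of a type and less RNA per cell cannot be told apart.

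Osmr and Lifr are neighbours on mouse chromosome 15. In the GRCm39 annotation Osmr lies on the minus strand at chr15:6843053-6904450 and Lifr on the plus strand at chr15:7120095-7226970, so the genes point away from each other. Their start sites are 215645 bases apart, with no other protein-coding gene between them and 4 lncRNA annotations and 1 annotation still to be experimentally established in the gap. The promoter windows of Osmr, Lifr and Il3ra, from 250 bases before to 50 bases after the annotated start, are shown because these genes were among the 4 that carried the selection and Osmr and Lifr start on either side of this gap. The sequences are from RefSeq on GRCm38.p6, written along the strand of transcription, at chr15:6874264-6874563 for Osmr, chr15:7129322-7129621 for Lifr and chr14:14346245-14346544 for Il3ra, and the capitals mark the match to the AP-1 motif TGANTCA.
Osmr: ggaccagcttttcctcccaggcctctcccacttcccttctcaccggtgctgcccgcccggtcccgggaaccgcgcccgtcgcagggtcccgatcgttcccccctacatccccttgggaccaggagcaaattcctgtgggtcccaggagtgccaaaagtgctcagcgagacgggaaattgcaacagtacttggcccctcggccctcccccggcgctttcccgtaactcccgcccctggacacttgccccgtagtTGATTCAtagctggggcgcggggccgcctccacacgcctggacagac
Lifr: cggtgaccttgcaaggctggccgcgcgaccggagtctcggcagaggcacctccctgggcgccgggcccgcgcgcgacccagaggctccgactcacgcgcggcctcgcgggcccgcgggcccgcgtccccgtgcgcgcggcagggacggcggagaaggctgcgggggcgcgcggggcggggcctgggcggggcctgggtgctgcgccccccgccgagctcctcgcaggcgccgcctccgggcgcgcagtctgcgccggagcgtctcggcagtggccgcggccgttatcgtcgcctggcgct
Il3ra: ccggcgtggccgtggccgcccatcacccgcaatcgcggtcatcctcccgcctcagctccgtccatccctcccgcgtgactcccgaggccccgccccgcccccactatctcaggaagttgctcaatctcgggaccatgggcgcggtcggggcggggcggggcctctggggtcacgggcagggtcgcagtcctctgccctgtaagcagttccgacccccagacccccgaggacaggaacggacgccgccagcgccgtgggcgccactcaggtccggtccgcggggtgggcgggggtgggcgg

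The GC content of these windows was 66.0% for Osmr, 81.3% for Lifr and 74.3% for Il3ra, beside a median of 52.7% over 32851 mouse promoters of the same length. They held 22, 53 and 35 CG dinucleotides, against a median of 7. A second Lifr window, at chr15:7140292-7140591, had 53.3% GC and 4 CG dinucleotides. High GC content was not particular to these genes. The windows of other receptor genes had 62.0% (Il4ra), 66.0% (Il6ra), 68.3% (Il6st) and 71.0% (Il13ra1), and those of Il1r1 49.3% and 63.3%. Of the 10 receptor genes, 8 had promoter entries, 10 entries in all. The STAT motif TTCNNNGAA, found in 8.30% of all promoters when both strands were searched, matched none of the 10 entries, and the AP-1 motif, found in 7.81% of all promoters, matched the Osmr entry alone, at position 254 counted from the first base printed. These counts describe letters in a short window and say nothing of a factor at these genes.

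Across the genes tested, edgeR's quasi-likelihood test placed 829 genes higher in PEA (6.31% of 13142) and 623 lower (4.74%) at an adjusted p below 0.05, or 11.0% in either direction. Of the 10 receptor genes, 2 were past this threshold as higher (Osmr and Il3ra) and 2 as lower (Lifr and Csf2rb), which is the pattern the genes were chosen by and no result about them. Il3ra lay just inside the threshold (adjusted p = 0.0366 from edgeR), and Il17ra, Il1r1 and Il13ra1 lay just outside it (0.0531, 0.0534 and 0.0553). Counted by direction alone, 7 were higher and 3 lower in PEA, with a median log2 fold change of 0.18 beside 0.005 over all genes tested. Their median absolute log2 fold change was 0.21, and that of all genes tested was 0.11.

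**Figure D1:**
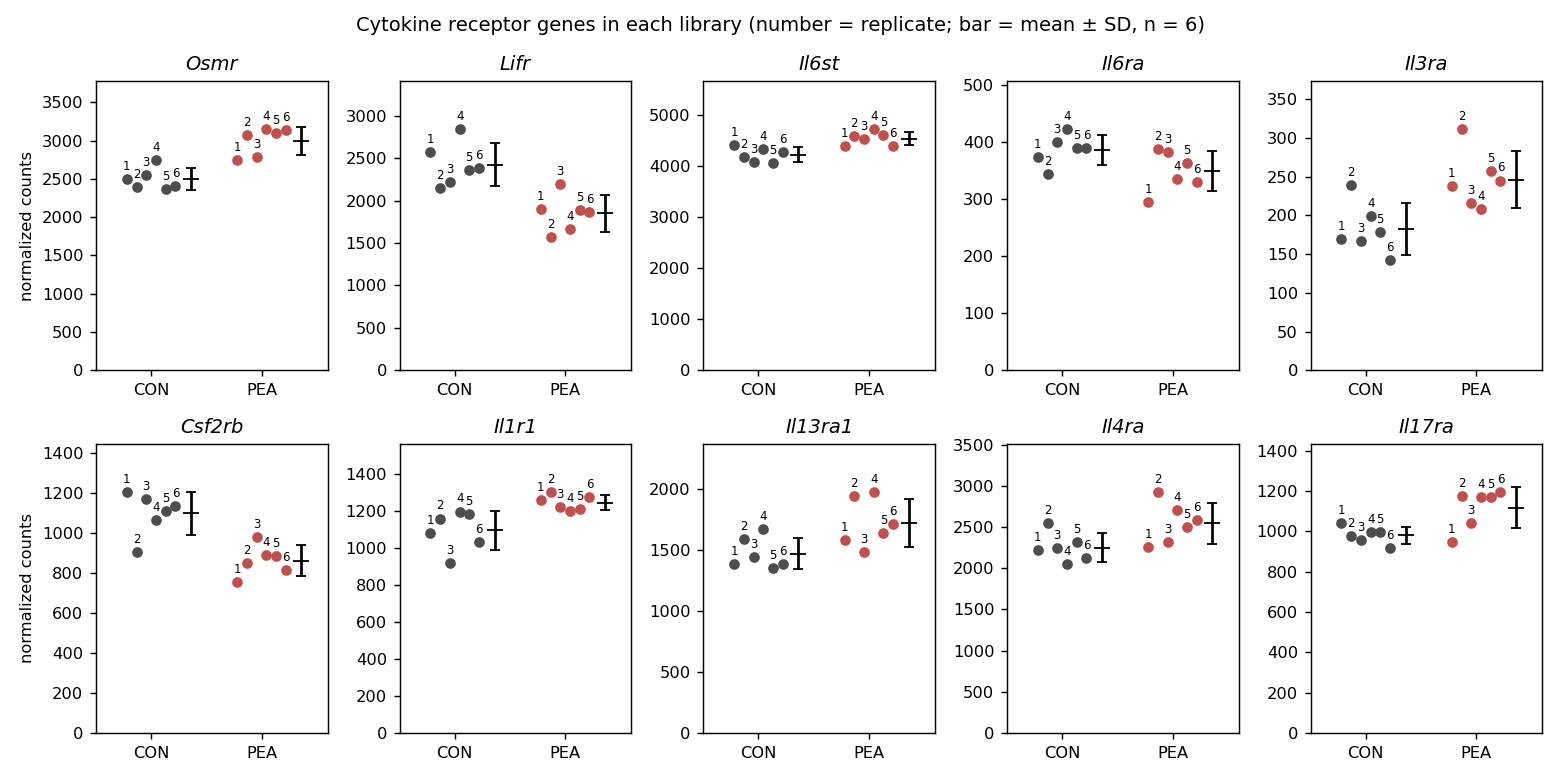
Normalized counts (y axes, from 0) of the 10 receptor genes in each CON and PEA library, with the replicate number above each point and the mean ± SD of each group as a bar (n = 6). Il1r1 is the only gene whose groups do not overlap, and Lifr and Csf2rb show 5 PEA libraries below the lowest CON library.

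Osmr (ENSMUSG00000022146) encodes the chain that pairs with gp130 to bind oncostatin M. Normalized counts of Osmr had a lowest, median and highest value of 2369, 2450 and 2750 in CON, and of 2742, 3089 and 3148 in PEA. The groups met at 1 point: CON replicate 4, the highest of its group, stood just above PEA replicate 1, the lowest of its own, and the other 5 PEA libraries lay above all CON libraries. The means were 2494 ± 144 and 2996 ± 185 (SD, n = 6 each), a log2 fold change of 0.27 (SE 0.051) or 20.3% more.

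Lifr (ENSMUSG00000054263) encodes the chain that pairs with gp130 to bind LIF, and that CNTF and cardiotrophin-1 also use. Its normalized counts ran from 2150 through a median of 2377 to 2841 in CON, and from 1573 through 1873 to 2197 in PEA. PEA replicate 3 was the one PEA library inside the CON range, and the other 5 lay below CON replicate 2, the lowest CON library. The mean was 2423 ± 253 in CON and 1849 ± 216 in PEA (SD, n = 6 each), a log2 fold change of -0.39 (SE 0.078).

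Il6st (ENSMUSG00000021756, chr13:112600604-112646620 in GRCm39), the gene for gp130 itself, had the most reads of the 10 and the smallest coefficient of variation in each group. It ran from 4053 through 4229 to 4407 normalized counts in CON and from 4394 through 4560 to 4724 in PEA. The groups overlapped, with 4 PEA libraries above the highest CON library. The means were 4225 ± 141 and 4542 ± 129 (SD, n = 6 each), with a log2 fold change of 0.11 (SE 0.039).

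Il6ra (ENSMUSG00000027947, chr3:89771366-89820719 in GRCm39) encodes the ligand-specific chain for IL-6, which is also shed from cells as a soluble receptor. Normalized counts of Il6ra were 343 to 422 in CON, with a median of 389, and 295 to 387 in PEA, with a median of 348. The groups overlapped, with 3 PEA libraries below the lowest CON library. The log2 fold change was -0.15 (SE 0.079).

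Per kilobase of exon, the balance of the chains that use gp130 differed between the groups with Osmr and Lifr. The ratio of Osmr to Lifr was 1.15 ± 0.087 in CON, between 1.08 and 1.28, and 1.83 ± 0.291 in PEA, between 1.41 and 2.17 (SD, n = 6 each). All PEA libraries had a larger ratio than all CON libraries, which follows from the values the genes were chosen by. Against gp130, Osmr stood at 0.739 ± 0.039 in CON and 0.826 ± 0.045 in PEA, Lifr at 0.645 ± 0.054 and 0.459 ± 0.059, and Il6ra at 0.160 ± 0.012 and 0.134 ± 0.012. In CON, then, the Osmr and Lifr levels lay closer to each other than in any PEA library, and Il6ra was the scarcest of these 4 chains in both groups.

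**Figure D2:**
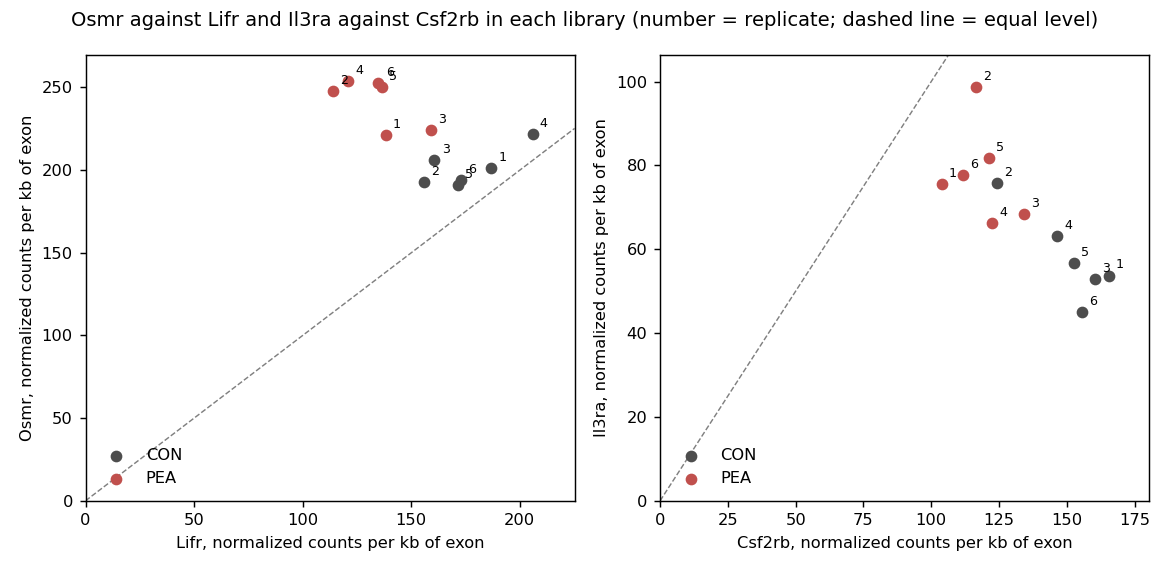
Normalized counts per kb of exon of Osmr against Lifr (left) and Il3ra against Csf2rb (right) in each library, CON in grey and PEA in red, with replicate numbers beside the points and a dashed line at equal level. Osmr lies above the line in all 12 libraries, with ratios from 1.08 to 2.17, and Il3ra lies below it in all 12, with ratios from 0.290 to 0.847.

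Il3ra (ENSMUSG00000068758, chr14:8113752-8123508 in GRCm39) encodes the alpha chain that binds IL-3. It had the fewest reads of the 10 genes, with normalized counts of 142 to 239 in CON (median 174) and 209 to 312 in PEA (median 242). CON replicate 2 lay within the PEA range and the other 5 CON libraries lay below it. The means were 183 ± 33.3 and 246 ± 36.8 (SD, n = 6 each), a log2 fold change of 0.44 (SE 0.13) and the largest coefficient of variation of the 10. Its adjusted p went above 0.05 in the fits without CON replicate 1, 3, 5 or 6 or PEA replicate 2, 5 or 6, where the log2 fold change stayed between 0.36 and 0.53 over the 12 fits that left out 1 library.

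Csf2rb (ENSMUSG00000071713, chr15:78209952-78238047 in GRCm39), the beta-common chain, ran from 905 through 1121 to 1204 normalized counts in CON and from 756 through 865 to 977 in PEA. CON replicate 2 was the one CON library inside the PEA range, and PEA replicate 3 the one PEA library inside the CON range. The means were 1097 ± 106 and 861 ± 75.4 (SD, n = 6 each), a log2 fold change of -0.35 (SE 0.072). The paralog next to it, Csf2rb2, which encodes a second beta chain for IL-3 in the mouse and is close enough in sequence to share reads, had 11.5 ± 8.08 and 12.2 ± 9.88 normalized counts, and the split of reads between both is uncertain. The ratio of Il3ra to Csf2rb per kilobase was 0.393 ± 0.117 in CON and 0.665 ± 0.125 in PEA (SD, n = 6 each), and CON replicate 2, at 0.610, lay within the PEA range of 0.509 to 0.847. CON replicate 2 thus stood apart on both sides of this ratio, as the highest CON library for Il3ra and the lowest for Csf2rb. Csf2ra and Il5ra, the alpha chains for GM-CSF and IL-5, were not analysed here.

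Il1r1 (ENSMUSG00000026072, chr1:40264174-40356417 in GRCm39) encodes the signalling receptor for IL-1. Its normalized counts were 920 to 1199 in CON (median 1122) and 1200 to 1305 in PEA (median 1241). It was the only one of the 10 genes whose groups did not overlap, by the width between 175.9 and 176.1 normalized counts per kilobase, and it was not past the threshold (log2 fold change 0.19, SE 0.060). Every PEA library lay above every CON library for 2.53% of all genes tested, and below for 1.81%.

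Il13ra1 (ENSMUSG00000017057, chrX:35375461-35435331 in GRCm39) and Il4ra (ENSMUSG00000030748, chr7:125151079-125182844 in GRCm39) encode the chains of the receptor that IL-13 and IL-4 share on cells outside the blood lineages. Il13ra1 had 1347 to 1667 normalized counts in CON and 1481 to 1972 in PEA (log2 fold change 0.23, SE 0.074), and Il4ra had 2048 to 2549 and 2254 to 2926 (log2 fold change 0.18, SE 0.066). In both genes 3 PEA libraries lay above the highest CON library and the other 3 lay within the CON range. The ratio of Il13ra1 to Il4ra per kilobase was 1.38 ± 0.172 in CON and 1.42 ± 0.070 in PEA (SD, n = 6 each), so the ranges of this pair overlapped widely where those of Osmr and Lifr did not.

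Il17ra (ENSMUSG00000002897, chr6:120440104-120464520 in GRCm39) encodes the chain common to the IL-17 receptors. Its normalized counts ran from 917 to 1042 in CON (median 986) and from 946 to 1196 in PEA (median 1173). PEA replicate 1 lay within the CON range and the other 5 PEA libraries lay above it, PEA replicate 3 by the least. The log2 fold change was 0.19 (SE 0.061).

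**Figure D3:**
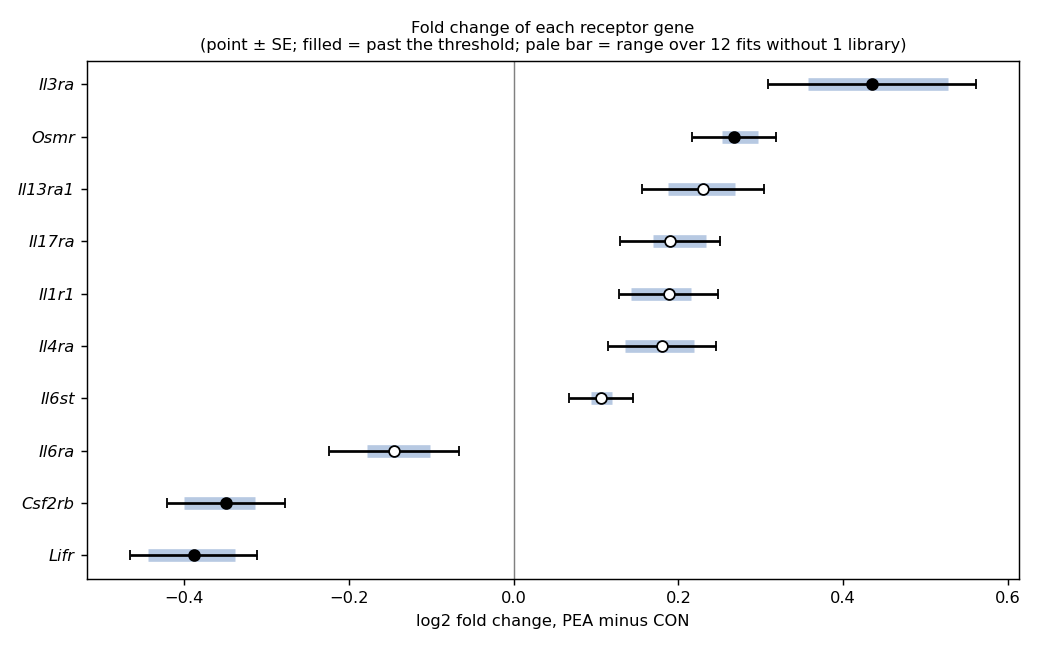
Log2 fold change of each receptor gene (x axis, PEA minus CON) as a point with its SE from edgeR, filled where the gene was past the threshold, with a pale bar for the range over 12 fits that each left out 1 library. Each range stays on one side of 0, from -0.44 to -0.34 for Lifr and from 0.25 to 0.30 for Osmr.

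The same library was often the extreme one for several receptor genes. CON replicate 4 was the highest CON library for 5 of them (Osmr, Lifr, Il6ra, Il1r1 and Il13ra1), and PEA replicate 1 the lowest PEA library for 6 (Osmr, Il6st, Il6ra, Csf2rb, Il4ra and Il17ra). PEA replicate 2 was the highest of its group for 4 (Il6ra, Il3ra, Il1r1 and Il4ra) and the lowest for Lifr. PEA replicate 5 was at neither end for any of them.

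The order of the 10 genes by level was not used to choose them, and it could be tested within the CON libraries. In normalized counts per kilobase of exon, the mean levels in CON (± SD, n = 6) were 310 ± 27.5 for Il13ra1, 272 ± 9.09 for Il6st, 226 ± 17.5 for Il4ra, 201 ± 11.6 for Osmr and 176 ± 18.4 for Lifr. The lower 5 were Il1r1 at 161 ± 15.7, Csf2rb at 151 ± 14.5, Il17ra at 112 ± 4.81, Il3ra at 57.9 ± 10.6 and Il6ra at 43.6 ± 2.97. Among 13131 genes with a length, Il13ra1 stood at the 79.1 percentile of this level and Il6ra at the 31.3 percentile. Il6st, at the 76.3 percentile, and Il6ra, the chains of the IL-6 receptor, stood near opposite ends of the range.

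Of the 9 pairs of neighbours in this order, 6 had the same direction in all 6 CON libraries (two-sided exact sign-flip permutation test, p = 0.03125, the smallest that 6 libraries can give, adjusted p = 0.0469 over the 9 pairs). These were Il13ra1 over Il6st, Il6st over Il4ra, Osmr over Lifr, Csf2rb over Il17ra, Il17ra over Il3ra and Il3ra over Il6ra. The test treats the libraries as independent, and with the 3 repeats as the unit no p below 0.25 could be reached. The largest step was that from Il17ra to Il3ra, 1.96-fold. Per kilobase of exon the remaining 3 pairs did not differ beyond their spread: Il4ra was above Osmr in 5 of 6 libraries (exact permutation test, adjusted p = 0.0804), Lifr above Il1r1 in 4 of 6 (adjusted p = 0.141) and Il1r1 above Csf2rb in 3 of 6 (adjusted p = 0.469). With coding length in place of exon length, Il6st stood above Il13ra1 and Il6ra above Il3ra, and Csf2rb was above Il17ra by a log2 ratio of 0.11 in place of 0.43 (exact permutation test, adjusted p = 0.188), while Il1r1 was above Csf2rb by 0.64 in place of 0.09 (adjusted p = 0.0469), so 3 of the 6 steps and 1 of the 3 unresolved pairs depend on how much untranslated exon the annotation gives each gene.

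**Figure D4:**
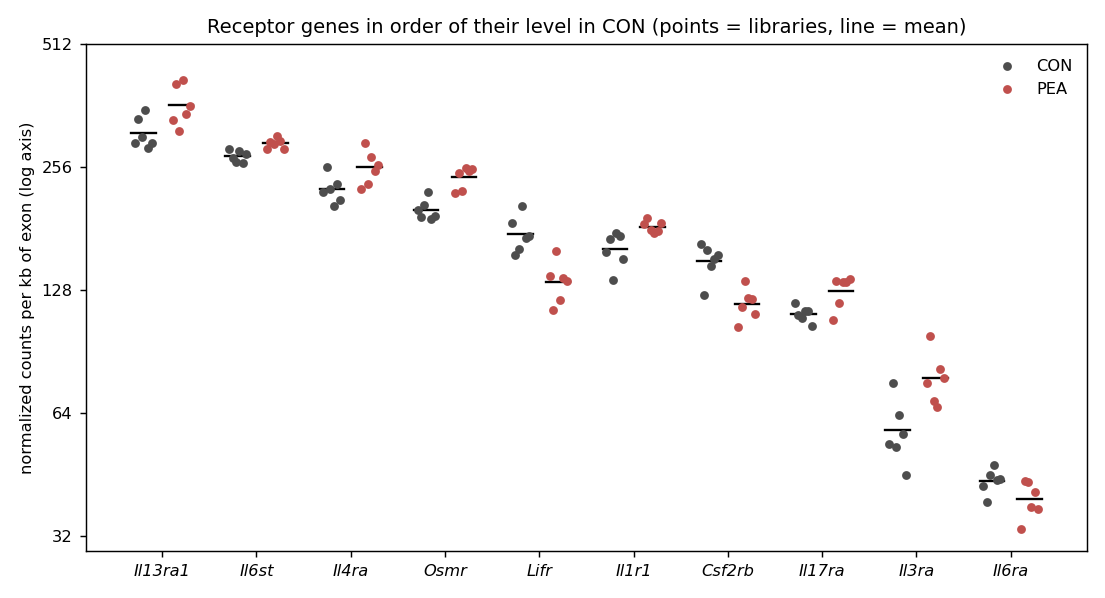
Normalized counts per kb of exon (log axis) of the receptor genes, ordered by their mean in CON, with CON libraries in grey, PEA libraries in red and a line at each mean. The levels run from 310 for Il13ra1 to 43.6 for Il6ra in CON, and Lifr and Csf2rb are the genes that change place in PEA, below Il1r1 and Il17ra.

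In PEA, 6 of the 10 genes held the same rank as in CON. The exceptions were Il1r1 and Lifr, which changed places at 183 ± 5.94 and 134 ± 15.7 normalized counts per kilobase, and Il17ra and Csf2rb, which changed places at 127 ± 11.5 and 118 ± 10.4 (SD, n = 6 each). The PEA ranges of Il17ra and Csf2rb overlapped. Both changes include a gene that was chosen for being lower in PEA, so they are a description with no test.

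After the mean of each group was removed, the receptor genes varied together only in part between libraries. Over the 45 pairs and 12 libraries, the median Pearson r of the log2 CPM deviations was 0.19, and 34 pairs were above 0. These are descriptions over libraries of which some come from the same repeat of the experiment. The highest value was that of Osmr and Il17ra (0.72, but 0.22 in CON alone and 0.96 in PEA alone), followed by Osmr and Il13ra1 (0.69, with 0.61 in CON and 0.75 in PEA). The lowest was that of Lifr and Il4ra (-0.83), which had a like value in CON (-0.79) and in PEA (-0.86). Il3ra and Csf2rb, the chains of the IL-3 receptor, deviated in opposite directions (-0.62, with -0.84 in CON and -0.30 in PEA). Osmr and Lifr had -0.06 over all libraries, with 0.70 in CON and -0.66 in PEA, so the value over all libraries describes neither group. CON replicate 4 was the highest CON library for both genes (2750 and 2841 normalized counts), and the CON value rests largely on it.

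Across all genes tested, those whose deviations were most like the deviations of Osmr over the 12 libraries were Ces1a (Pearson r 0.96), 1110038F14Rik (0.96) and Znrf2 (0.90). For Lifr they were Gulp1 (0.95), Insc (0.94) and Rab3ip (0.92), for Il3ra Ehmt2 (0.94), Zcchc2 (0.91) and Shisa4 (0.89), and for Csf2rb D930048N14Rik (0.92), Brwd3 (0.89) and Kdm3a (0.89). None of these 12 genes was on the lists of receptor system genes below. Insc and D930048N14Rik had means of only 11.9 and 9.28 normalized counts, where counting noise is large. Ces1a, with a mean of 49.0, was lower in PEA (log2 fold change -1.085, adjusted p = 0.00961 from edgeR), unlike Osmr. All these genes are the top of 13142 genes over few libraries and are given as a description.

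Of the other genes next to Osmr, Lifr and Csf2rb, Rictor and Csf2rb2 were tested and were not past the threshold, and Cimip4, beside Csf2rb, was not analysed here. Rictor, which encodes a subunit of mTORC2 and lies beside Osmr, had 523 ± 58.4 and 492 ± 23.1 normalized counts (SD, n = 6 each, log2 fold change -0.09, adjusted p = 0.477 from edgeR). Egflam, beside Lifr, had 8.56 ± 5.30 and 3.24 ± 3.38 and was below the filter on low counts. Csf2rb2, beside Csf2rb, had a log2 fold change of 0.04 (adjusted p = 0.973 from edgeR).

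Around the receptors, 13 lists of ligands, partner chains, transducers, inhibitors and target genes held 142 genes besides the 10 receptors, of which 119 were in the tables and 109 were tested. Of these, 10 were past the threshold, 6 higher and 4 lower, or 9.17% beside 11.0% of all genes tested, and 9 were past it, 5 of them higher, without Icam1, which had few or no counts in CON. By direction alone 61 were higher and 48 lower, with a median log2 fold change of 0.03.

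Of the ligands of the gp130 group, 0 of 5 tested were called by edgeR, DESeq2 or limma, and 0 had an unadjusted p below 0.05. Normalized counts of Il6 were 571 ± 233 in CON and 672 ± 141 in PEA, of Lif 222 ± 18.5 and 216 ± 17.1, and of Il11 20.8 ± 3.93 and 25.4 ± 8.49 (SD, n = 6 each). Csf2, the gene for GM-CSF, was near the limit of detection, at 2.89 ± 2.53 and 1.32 ± 0.904. Osm, Il3, Il4, Il13 and Il17a, the ligand genes of Osmr, Il3ra, Il4ra with Il13ra1, and Il17ra, were not analysed here.

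Other chains of the gp130 group and their partners had 0 of 6 tested genes past the threshold with edgeR, DESeq2 or limma and 2 at an unadjusted p below 0.05 in edgeR, with a median log2 fold change of 0.02. The only beta-common partner or ligand tested was Csf2rb2. The list of gamma-chain, IL-4 and IL-13 genes had 0 of 8 called by edgeR, 2 at an unadjusted p below 0.05 and 1 called by DESeq2 (median 0.17). The IL-17 list had 0 of 3 called by edgeR, DESeq2 or limma and 1 at an unadjusted p below 0.05 (median 0.26, and -0.05 without the filter on low counts). In the IL-1 family (median -0.15) 2 of 9 were called, both ligands of the family and both lower in PEA. Il1a, which binds Il1r1, fell from 56.1 ± 8.87 to 26.9 ± 11.6 normalized counts (edgeR log2 fold change -1.06, SE 0.26, adjusted p = 0.0169), and Il33, which binds Il1rl1, fell by 0.44 on the log2 scale (SE 0.081, adjusted p = 0.00349). Both calls held in all 12 fits that left out 1 library. Il1b had 141 ± 52.4 and 88.7 ± 36.9 normalized counts and was not past the threshold (adjusted p = 0.116).

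Among the JAK and STAT transducers 1 of 10 was called by edgeR and by DESeq2, and 2 by limma (median log2 fold change 0.05). Stat2, which acts below interferon receptors, rose by a log2 fold change of 0.83 (SE 0.23, adjusted p = 0.0276 from edgeR), a call lost without CON replicate 1 or 6 or PEA replicate 2, 4, 5 or 6. The kinases and STATs that the receptors of the gp130 and beta-common groups use had log2 fold changes of -0.02 for Jak1, 0.14 for Jak2, -0.02 for Tyk2, 0.10 for Stat3, -0.02 for Stat5a and 0.00 for Stat5b, none past the threshold, and the direction of Jak1, Tyk2, Stat5a and Stat5b changed between settings. Jak3 (0.37) and Stat6 (-0.05), the latter also of changing direction, were at 65.5 or fewer normalized counts in both group means.

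Of the 19 adaptors (median log2 fold change 0.03), 1 was called by edgeR and by limma, and 2 by DESeq2. The gene that DESeq2 added was Irak2, as lower (log2 fold change -0.213, adjusted p = 0.046). Irak4, a kinase below Il1r1, rose from 226 ± 30.9 to 305 ± 41.0 normalized counts (edgeR log2 fold change 0.44, SE 0.11, adjusted p = 0.0170), in all 12 fits without 1 library as well. Of the 15 inhibitors of JAK and STAT signalling 0 were called by edgeR and 2 had an unadjusted p below 0.05, with a median log2 fold change of -0.03. Socs1 (log2 fold change 0.46, SE 0.15, adjusted p = 0.0644), Socs3 (0.25, SE 0.10, adjusted p = 0.131) and Cish (0.31, SE 0.36, adjusted p = 0.628) had positive values, and DESeq2 and limma each placed Socs1 alone past the threshold. Of the 4 genes for shedding of receptors, the proteases Adam10 and Adam17 and their partners Rhbdf1 and Rhbdf2, 0 were called by edgeR, DESeq2 or limma, and 0 had an unadjusted p below 0.05.

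Of the target genes of STAT3, 13 of 15 had higher values in PEA, with a median log2 fold change of 0.25 (12 to 13 higher over the settings with all libraries), and 3 were called, all higher. Of all genes tested, 51.3% were higher by direction alone. DESeq2 called 5 of the list, with Serpina3n lower (log2 fold change -0.37, adjusted p = 0.0336). Junb, a subunit of AP-1, rose by 0.41 (SE 0.082, adjusted p = 0.00630 from edgeR), in all 12 fits without 1 library. Pim1, a kinase, rose by 0.41 (SE 0.12, adjusted p = 0.0301), a call lost without CON replicate 3, 5 or 6 or any of PEA replicates 2, 4, 5 and 6 (log2 fold change 0.35 to 0.52). Icam1, an adhesion molecule, had 0 to 18.9 normalized counts in CON and 16.0 to 47.4 in PEA, passed the filter on low counts only through its PEA libraries, and lost its call without CON replicate 4, 5 or 6 or PEA replicate 2, 4 or 5. Without Icam1, 12 of 14 STAT3 targets were higher, 2 were called and the median was 0.20. Pim1 was also the only STAT5 target called, among 7 with a median of 0.15.

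Target genes of IL-1 and IL-17 went both ways, with 1 of 13 called higher by edgeR and 2 lower (median -0.05). DESeq2 called 5, adding Ccl2 (log2 fold change -0.183, adjusted p = 0.0294) and Mmp3 (-0.325, adjusted p = 0.0482), both lower. With limma 4 were called, and the gene added was Lcn2, as higher (0.601, adjusted p = 0.0493). Ptgs2, the inducible cyclooxygenase, rose from 738 ± 94.2 to 1011 ± 106 normalized counts (edgeR log2 fold change 0.45, SE 0.085, adjusted p = 0.00426). Nfkbiz, which encodes an atypical member of the IκB family, fell by 0.26 on the log2 scale (SE 0.056, adjusted p = 0.00780 from edgeR), with every PEA library below every CON library. Nfkbia, the gene of IκBα, fell by 0.26 (SE 0.077, adjusted p = 0.0386), and its call was lost in 9 of the 12 fits that left out 1 library, those without CON replicate 3, 4, 5 or 6 or PEA replicate 2, 3, 4, 5 or 6.

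**Figure D5:**
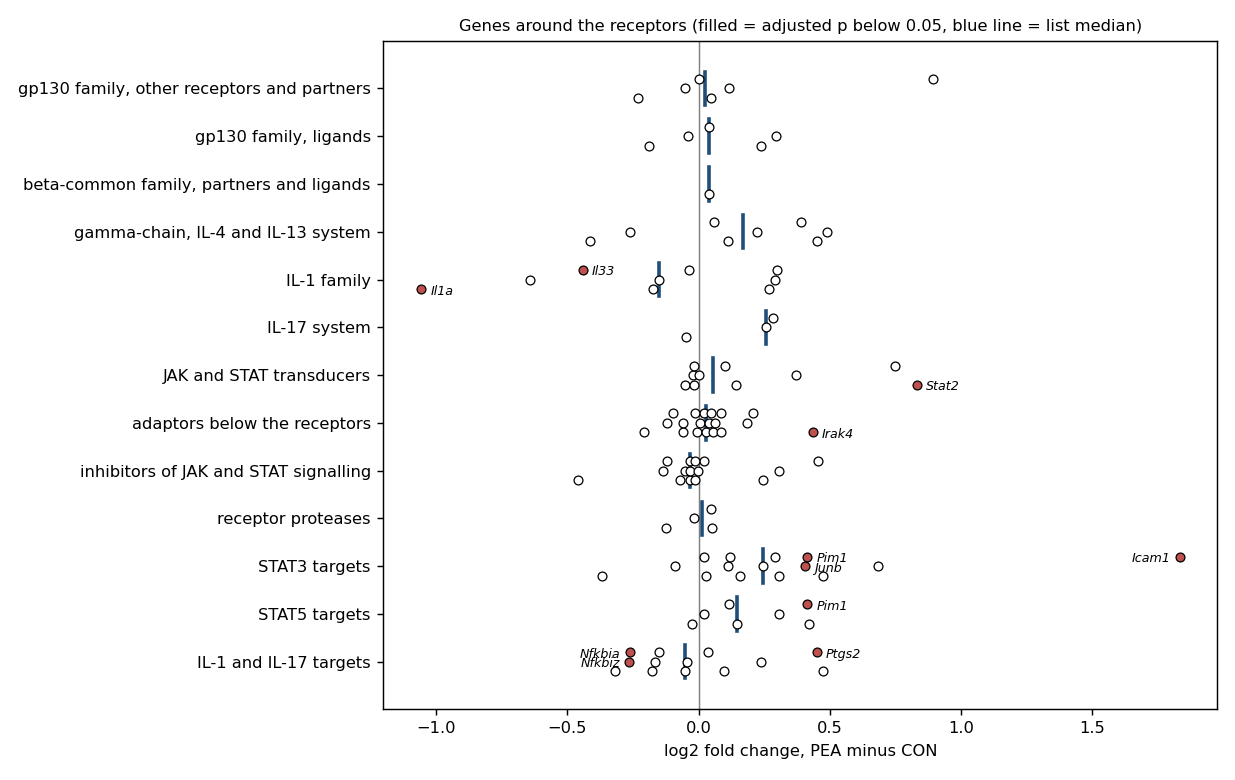
Log2 fold change (x axis, PEA minus CON) of each tested gene in 13 lists around the receptors (rows), filled and named where the adjusted p was below 0.05, with a blue line at the median of each list. Of 109 genes, 6 are filled on the right and 4 on the left, and the STAT3 targets have 13 of 15 points to the right of 0.

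Some markers of cell state differed between the groups. All 14 myotube markers had lower values in PEA, 3 of them past the threshold in edgeR (Mb, Myh8 and Tnnt3), with a median log2 fold change of -0.22 (13 to 14 lower over the settings with all libraries) and summed CPM of 7380 to 11280 in CON and 7795 to 8792 in PEA. Of 8 myoblast markers, the proliferation genes Mki67 and Top2a were called higher and Cdh15 lower (summed CPM 1094 to 1555 and 1284 to 1474), and of 7 tested fibroblast markers Dcn was called higher by edgeR but not by DESeq2 (3196 to 4157 and 3150 to 3728). The part of these markers in the receptor values was not tested. Of 13 macrophage and leukocyte markers, the cells in which Csf2rb and Il3ra are best known, 10 were in the tables and 3 passed the filter. By edgeR, DESeq2 or limma 0 of them were called and 1 had an unadjusted p below 0.05, and the summed CPM were 32.5 to 43.5 in CON and 37.8 to 46.7 in PEA, most of it from Cd14. Ptprc, the pan-leukocyte marker, had a mean of 0.319 normalized counts in CON and 0.843 in PEA, and Csf1r 8.09 and 6.67, against 1097 and 861 for Csf2rb. The endothelial markers summed to at most 1.86 CPM in CON and 2.35 in PEA, with 1 tested, which was called by none of the 3 tools and had an unadjusted p above 0.05.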

How the data were processed

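Libraries were grouped by the treatment given in the labels, 6 CON and 6 PEA, with 13 label entries for 12 libraries because PEA replicate 2 and its top-up run share 1 row of the tables. The study's methods state that the authors trimmed reads, aligned them with STAR 4.4.1d to mm39 and quantified Ensembl genes in Partek Flow. The authors deposited estimated counts per gene, not normalized, and a second table with the signal obtained by dividing those counts by 1 factor per library (DESeq2 median ratios), called normalized counts here. The factor was checked to be constant over genes. Genes were matched to GRCm39 symbols for 16343 of 16382 identifiers, and 2240 protein-coding genes with higher identifiers were not analysed here.

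Estimated counts were rounded and tested with edgeR 4.0.16 in R 4.3.3 (TMM, default filter on low counts, quasi-likelihood test, Benjamini-Hochberg adjustment over 13142 genes, threshold 0.05). TMM factors were 0.988 to 1.02 and the common coefficient of biological variation was 0.106. Levels per kilobase used exon lengths of a GENCODE annotation for GRCm39, which may differ from the Ensembl release behind the counts, neighbours in level were compared by exact sign-flip permutation within libraries, and within-group deviations used log2 CPM with a prior count of 2. DESeq2 1.42.0 and limma 3.58.1 gave alternatives. limma was run with voom on the counts and, as a separate setting, on log2 normalized counts with a pseudocount of 1. Calls given for limma are those of limma-voom. The 30 pairs of libraries within groups each differed by more than sampling noise. The scripts were tested on simulated data. The receptor genes and all lists were chosen with earlier results of these data known. Named genes were the receptors, Csf2rb2, listed genes past the threshold, their ligand, JAK, STAT, Socs1, Socs3 and Cish genes, chromosomal neighbours, and for Osmr, Lifr, Il3ra and Csf2rb the 3 genes with the most similar deviations. Mb, Myh8, Tnnt3, Mki67, Top2a, Cdh15, Dcn, Cd14, Ptprc and Csf1r were named from the marker lists. Adam10, Adam17, Rhbdf1 and Rhbdf2 were named to say what their list holds. One listed gene named by this rule is not reported here. Serpina3n, Ccl2, Mmp3, Lcn2 and Irak2 were named, and counts without Icam1 were added, after the values were seen.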

Additional observations from a re-analysis of the deposited data

How the results depend on the processing

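The 200 alternative fold changes of the 10 receptor genes (8 settings with all libraries and 12 that left out 1 library each) all kept their direction. The number of receptor genes past the threshold, 4, was 7 with DESeq2, which added Il1r1, Il13ra1 and Il17ra, and ran from 3 to 7 when 1 library was left out (3 without CON replicate 1, 3, 5 or 6 or PEA replicate 2, 5 or 6, and 7 without CON replicate 2 or PEA replicate 1). Over all genes, 829 were higher and 623 lower, beside 1000 and 935 with DESeq2, 282 and 123 at an adjusted p below 0.01, and 492 to 1232 and 286 to 971 without 1 library, lowest without PEA replicate 6 and highest without CON replicate 2. Of the receptor system genes, 6 higher and 4 lower became 8 and 9 with DESeq2, 2 and 2 at an adjusted p below 0.01, and 3 to 10 and 3 to 8 without 1 library, with 10 and 8 without CON replicate 2 and 3 higher without CON replicate 6 or PEA replicate 2, 4 or 5. The cause was not tested.

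With the replicate number as a block (replicate block), 943 genes were higher and 627 lower, and 10 and 5 receptor system genes. Deviations of same-numbered CON and PEA libraries correlated between -0.083 and 0.065 and no library correlated best with its own number, so the numbers were not taken to pair the libraries.

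Genes close to 0 changed direction. Without 1 library, Jak1 ranged from -0.034 to 0.003, Tyk2 from -0.052 to 0.016, Stat5a from -0.095 to 0.028, Stat5b from -0.042 to 0.033, Stat6 from -0.26 to 0.15 and Csf2rb2 from -0.45 to 0.40 (log2). Stat5b was -0.0031 with DESeq2, -0.0089 with limma-voom and -0.0019 with median-of-ratios factors, and Csf2rb2 was -0.12 with limma-voom, -0.024 from the normalized counts in limma and -0.074 with the replicate block. In the order by level, coding length turned Il13ra1 over Il6st to a log2 ratio of -0.39 and Il3ra over Il6ra to -0.98. In the PEA libraries Lifr over Il1r1 was -0.46 and Csf2rb over Il17ra -0.11. Depth limits Csf2, Csf2rb2, Icam1, Stat6 and Cish, which had fewer than 50 counts in every library.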
